A study of Homo sapiens with 21 samples.

Results

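The heat shock and mitochondrial chaperone genes followed here were HSPA1A, HSPA1B, HSPA8, HSPH1, HSP90AA1, HSP90AB1, HSPB1, DNAJB1, HSPD1 and HSPE1. They were found in the raw count table by matching the Ensembl identifier of each row, with its version removed, to these symbols, and all 10 had a row among the 42339 identifiers of the table. RNA-seq was performed on BT-549, a BRCA1 wild-type triple-negative breast cancer (TNBC) cell line, in 21 libraries that form 7 groups of 3. The 2D cells were grown as monolayers in medium with serum. The 3D cells were passage 6 mammospheres, grown without attachment in MammoCult medium, so the 2D and 3D groups differed in medium as well as in growth format. The 3D + GO-203 cells were passage 6 mammospheres treated with 0.75 µM GO-203, an inhibitor of the MUC1-C protein. BT-549/tet-MUC1shRNA mammospheres (passage 6) and BT-549/tet-MYCshRNA mammospheres (passage 8) carried a doxycycline-inducible short hairpin RNA. They were given vehicle (0.1% DMSO), or 500 ng/ml doxycycline (DOX) to switch the hairpin on. Whether the hairpin was silent with vehicle was not tested. DOX was given for 10 days in the tet-MUC1shRNA line, and its time in the tet-MYCshRNA libraries is not stated in the sources used here. A single hairpin was used per gene and no library of a control hairpin with DOX was analysed here, so silencing and DOX itself cannot be told apart. The 3 libraries of a group came from triplicate cultures of the same line, so the p-values measure the spread between such cultures.

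Heat shock proteins are chaperones that bind unfolded proteins and help them reach or regain their shape. HSPA8 (HSC70) and the inducible HSPA1A and HSPA1B (HSP70) bind short unfolded stretches in cycles of ATP use, which the J-domain protein DNAJB1 starts and the HSP110 protein HSPH1 helps to reset by nucleotide exchange. HSP90AA1 and HSP90AB1 encode the inducible and constitutive cytosolic HSP90, which act late in the folding of kinases and hormone receptors, and HSPB1 (HSP27) is a small heat shock protein that holds unfolded clients without ATP. HSPD1 (HSP60) and HSPE1 (HSP10) form the barrel and the lid of the mitochondrial chaperonin. Many of these genes are switched on by heat shock factor 1 (HSF1), which binds heat shock elements, inverted repeats of the letters GAA, whereas MYC binds E-boxes with the core CACGTG.

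The start regions of the genes are shown because HSF1 and MYC would act there. RefSeq (GRCh38.p14) gave 16 start windows for the 10 genes, each from 250 bases before to 50 after a transcription start. A heat shock element of 3 alternating units (GAANNTTCNNGAA or, on the other strand, TTCNNGAANNTTC) was found in windows of 4 of 10 genes, HSP90AA1, HSP90AB1, HSPA8 and HSPD1, or 4 of 16 windows (25%), beside 0.490% of all 35116 RefSeq windows. The shorter pair GAANNTTC, which is the same on both strands and is contained in the longer element, was found for 8 of 10 genes and in 9 of 16 windows (56.25%), beside 6.77% of all windows. The converse pair TTCNNGAA was found for the same 4 genes as the longer element, in 4 of 16 windows (25%), beside 7.74% of all windows. The stretches that hold the elements follow with the matched letters in capitals, 5′ to 3′ on the strand of the gene.
HSP90AA1, chr14:102087045-102087294, minus strand: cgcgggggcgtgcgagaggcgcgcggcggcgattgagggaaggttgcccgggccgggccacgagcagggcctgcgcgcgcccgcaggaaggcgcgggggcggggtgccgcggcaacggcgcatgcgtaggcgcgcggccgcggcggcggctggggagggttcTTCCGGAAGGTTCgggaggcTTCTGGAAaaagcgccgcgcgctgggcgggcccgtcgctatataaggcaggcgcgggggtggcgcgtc
HSP90AB1, chr6:44247763-44247858, plus strand: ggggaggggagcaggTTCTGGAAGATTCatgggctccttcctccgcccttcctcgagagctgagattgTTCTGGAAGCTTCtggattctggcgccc
HSPA8, chr11:123062345-123062374, minus strand: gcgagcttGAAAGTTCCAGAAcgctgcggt
HSPA8, chr11:123062170-123062199, minus strand: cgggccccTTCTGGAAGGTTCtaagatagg
HSPD1, chr2:197500064-197500090, minus strand: gcattTTCTGGAAAGTTCTGGAAccga
The HSP90AA1 and HSP90AB1 stretches lie within the annotated gene spans and overlap 0 annotated exons, and they end 1 base and 85 bases before their starts. The HSPA8 and HSPD1 stretches overlap exons of some annotated transcripts. HSPD1 and HSPE1 are neighbours on opposite strands of chromosome 2, and 104 bases lie between the HSPE1 start (197500379) and the nearer of the HSPD1 starts (197500274). Both windows hold the same E-box, which was in 7.26% of all windows and in those of none of the other 8 genes.
HSPE1, chr2:197500345-197500374, plus strand: gggtgattttttCACGTGtcgccagggccg
The single window of HSPH1 held none of the motifs searched. A match describes the letters and is not a measured binding site.

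**Figure D1:**
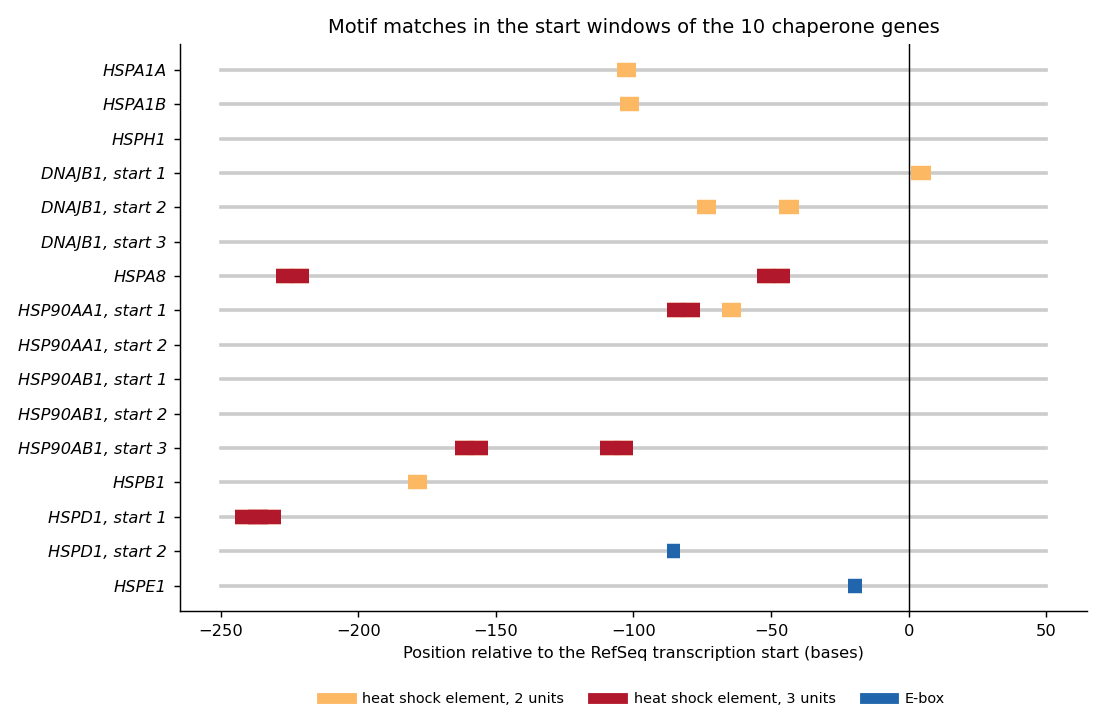
Each grey line is a RefSeq start window of 1 of the 10 chaperone genes, and the x axis is the distance in bases from the transcription start. Coloured blocks are heat shock elements of 2 units (orange), of 3 units (red) and E-boxes (blue). The 3-unit elements sit in windows of HSPA8, HSP90AA1, HSP90AB1 and HSPD1.

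The inducible HSP70 genes could not be read from these counts. HSPA1A (chr6:31815543-31817946, ENSG00000204389) had 24 reads and HSPA1B (chr6:31827738-31830254, ENSG00000204388) 7 reads over all 21 libraries, with at most 9 and 2 reads in any of them. The HSPA1A cell was blank in all 6 tet-MUC1shRNA libraries. Their coding sequences of 1923 bases differ at 4 positions (99.8% identical) and share their first 1709 bases, so reads from either copy often match both. The stretch with 2 of the 4 differences, in capitals, follows from base 1846 of the coding sequence.
HSPA1A, chr6:31817602-31817661, plus strand: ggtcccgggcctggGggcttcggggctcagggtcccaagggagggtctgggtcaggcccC
HSPA1B, chr6:31829796-31829855, plus strand: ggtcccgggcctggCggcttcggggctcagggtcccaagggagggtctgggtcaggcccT
Of 100-base windows in the exons of HSPA1A and HSPA1B, 27.6% and 31.1% occurred once in the primary GRCh38 assembly, and 0% occurred once when its alternative contigs were counted. In HSPH1 and DNAJB1 100% of such windows were single. BAG6, also at 0%, was counted at 79.4 to 152 CPM. DDX39B and CSNK2B, at 0% as well, had 122 and 65 reads in all, and 100% and 82.6% of their main transcripts are shared with another gene on the same strand. Whether the HSPA1A and HSPA1B counts reflect low expression or the handling of reads that match several places was not tested, and neither gene passed the filter on low counts, so 8 of 10 genes entered the comparisons.

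The remaining 8 genes were abundant, with the lowest count in any library at 528 reads (HSPE1). Levels are given as CPM, the counts of a gene scaled to the size of its library, after TMM scaling over the 21 libraries, whose totals ran from 38026597 to 99751717 reads. All 10 genes together held 0.985 to 1.03% of reads in vehicle-treated tet-MYCshRNA mammospheres, the highest group, and 0.492 to 0.534% in DOX-treated tet-MUC1shRNA mammospheres, the lowest. Per kilobase of the main transcript, HSPA8 was the highest (1106 ± 187 CPM per kb, SD over 21 libraries). HSP90AB1 (534 ± 141 CPM per kb), HSP90AA1 (530.3 ± 178) and HSPB1 (421 ± 105) followed, then HSPD1 (246 ± 76.5), HSPH1 (80.7 ± 27.4), DNAJB1 (62.5 ± 9.47) and HSPE1 (52.0 ± 16.5). This order is that of the pooled mean and was not the same in every group. HSP90AA1 was above HSP90AB1 in vehicle-treated tet-MYCshRNA mammospheres (896 and 732 CPM per kb) and in both DOX groups, and HSPB1 was above both HSP90 genes in the DOX groups (442 ± 29.8 CPM per kb in the tet-MUC1shRNA and 570.0 ± 147 in the tet-MYCshRNA line, SD, n = 3, the latter within its SD of HSP90AA1 at 522 ± 58.7). HSPE1 was above DNAJB1 in both tet-MUC1shRNA groups (71.3 and 57.9 CPM per kb with vehicle). Whether HSPE1 was undercounted at this scale was not tested. Of its main transcript, 34.5% is shared with the readthrough gene HSPE1-MOB4, which had no row of that name in the count table. The 17 HSPE1 pseudogene rows held reads equal to 14.4% of the HSPE1 count. The corresponding pseudogene share was 2.73% for HSPD1 and 0.793% for HSPA8.

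Untreated mammospheres of the 3 kinds differed from each other in several of these genes. HSPH1 averaged 489.8 ± 7.51 CPM in 3D cells, 234 ± 8.23 in vehicle-treated tet-MUC1shRNA and 697 ± 13.3 in vehicle-treated tet-MYCshRNA mammospheres (SD, n = 3 each), a 2.98-fold span between the group means without overlap. HSP90AA1 spanned 2.32-fold, from 1244 CPM in vehicle-treated tet-MUC1shRNA to 2893 in vehicle-treated tet-MYCshRNA mammospheres. The spans of the other 6 genes ran from 1.28-fold (DNAJB1) to 1.72-fold (HSPE1). Vehicle-treated tet-MYCshRNA mammospheres had the highest mean of all 7 groups for HSPH1, HSP90AA1, HSP90AB1, HSPA8 and HSPD1. The 3D and tet-MUC1shRNA groups share the passage and differ in line and vehicle, and the vehicle groups of the tet lines share 0.1% DMSO and differ in line and passage. Those factors, and any activity of a hairpin without DOX, cannot be told apart within each pair. Each DOX effect was therefore read against the vehicle of its own line.

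**Figure D2:**
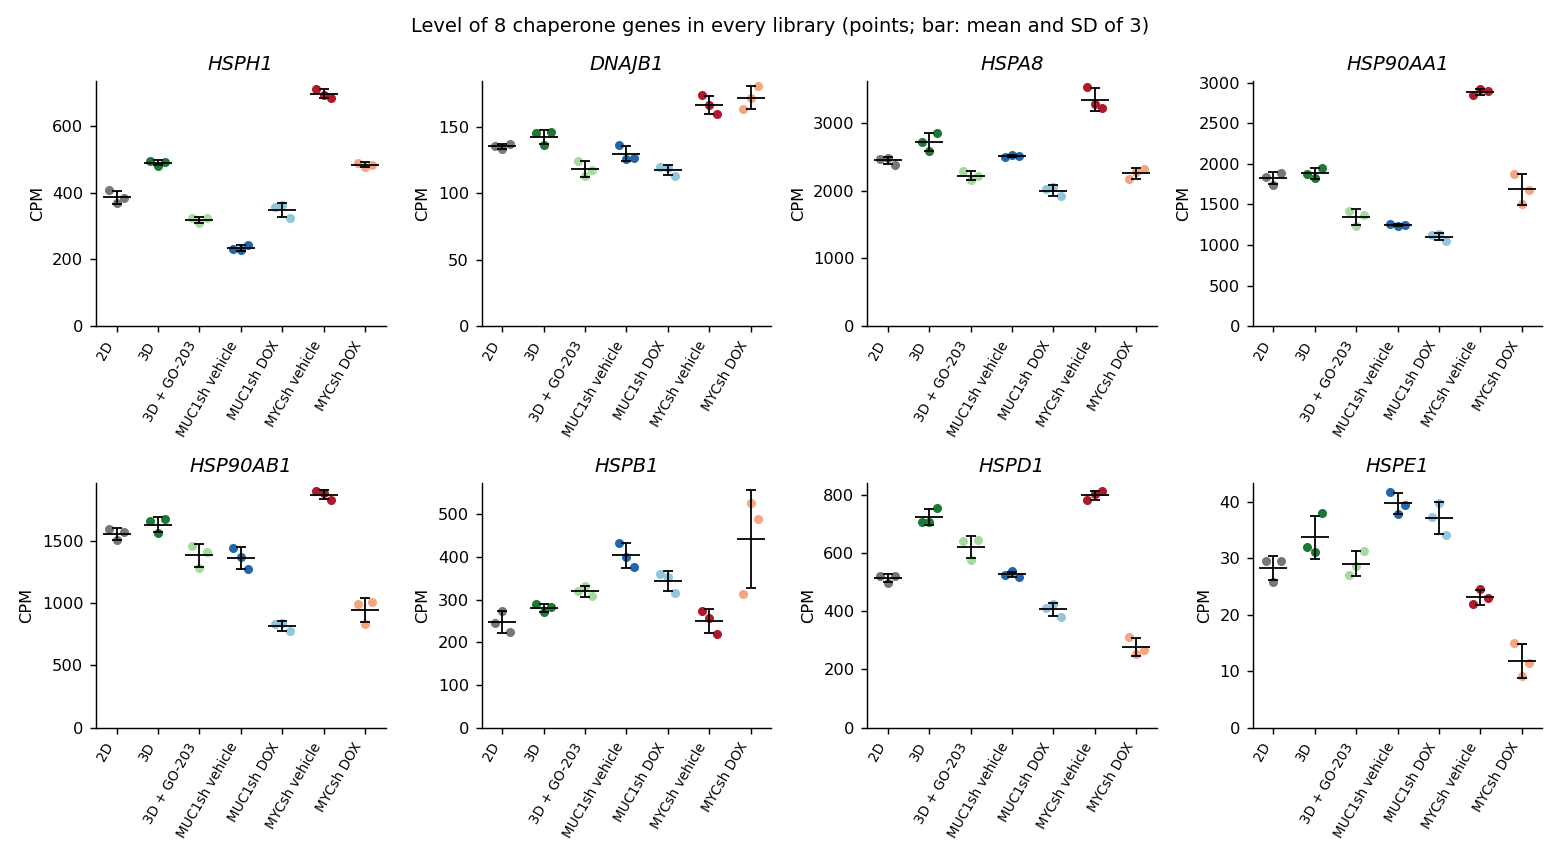
The y axis of each panel is the level in CPM of 1 gene from 0, and the x axis shows the 7 groups. Points are the 3 libraries of a group and the bar is their mean with its SD. HSPH1 is lowest in vehicle-treated tet-MUC1shRNA mammospheres at 227 to 243 CPM, and HSPD1 falls from 782 to 811 CPM to 253 to 310.2 CPM with DOX in the tet-MYCshRNA line.

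In 3D versus 2D cells, the mitochondrial chaperonin and HSPH1 rose, the other called genes moved little and the HSP90 genes did not pass the test. A gene was called at a Benjamini-Hochberg adjusted p below 0.1 in edgeR's quasi-likelihood test. MYC and MUC1 RNA were both called higher in 3D cells, by 1.93 to 2.76 on the log2 scale. Of the 8 genes tested, 5 were higher and 0 lower, beside 32.0% of all 19190 genes tested that were higher and 31.7% that were lower. Their median log2 fold change was 0.16, beside -0.01 over all genes. The groups did not overlap for 4 of the 8, beside 64.2% of all genes tested. HSPD1 (HSP60, chr2:197486584-197516737) measured 521, 498 and 519.9 CPM in the 2D libraries and 706, 707 and 756 CPM in the 3D libraries. All 3D libraries were thus above all 2D libraries, a rise of 0.49 on the log2 scale (SE 0.05, adjusted p = 4.3e-07 by edgeR). Its lid HSPE1 (chr2:197500140-197503449) measured 29.6, 25.9 and 29.5 CPM in 2D and 32.0, 31.1 and 38.1 CPM in 3D cells. The groups did not overlap, but the rise of 0.25 (SE 0.08, adjusted p = 0.0182 by edgeR) became 0.16 with an adjusted p of 0.118 without 3D replicate 3. In bulk RNA, a change in each cell and a change in the number of cells that express a gene cannot be told apart.

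Among the cytosolic genes, HSPH1 (chr13:31134973-31162388) measured 408, 369.6 and 384 CPM in 2D and 494, 481 and 494 CPM in 3D cells. The rise was 0.33 (SE 0.05, adjusted p = 4.8e-05 by edgeR) with no overlap. HSPA8 (chr11:123057489-123063230) measured 2476, 2485 and 2388 CPM in 2D and 2717, 2587 and 2855 CPM in 3D cells, a rise of 0.15 (SE 0.05, adjusted p = 0.0157 by edgeR) that was not called with library size alone as the scale (0.085, adjusted p = 0.126). HSPB1 (chr7:76302673-76304295) had overlapping groups, at 224 to 275 CPM and 271 to 289 CPM, and its rise of 0.18 (SE 0.07, adjusted p = 0.0326 by edgeR) was not called without 2D replicate 3 (0.11, adjusted p = 0.176) and was 0.26 without 2D replicate 2. HSP90AA1 (chr14:102080742-102139699), HSP90AB1 (chr6:44246166-44253888) and DNAJB1 (chr19:14514769-14560391) had log2 differences of 0.04 (95% interval -0.07 to 0.15), 0.06 (-0.04 to 0.16) and 0.07, with overlapping groups. A list of 10 immediate early genes, which respond to the handling of cells, summed to 231 to 262 CPM in 2D and 676 to 723 CPM in 3D cells, and the share of reads from mitochondrial DNA was 5.22 to 5.24% in 2D and 2.31 to 2.72% in 3D cells. The part of either in these differences was not tested. The contrast also depended on which mammospheres were used. When the vehicle group of the tet-MUC1shRNA line stood in for 3D cells, HSPH1 was lower than in 2D cells (-0.73) and HSPD1 differed by 0.03 (adjusted p = 0.555 by edgeR). When the vehicle group of the tet-MYCshRNA line did, HSPE1 was lower (-0.29, adjusted p = 0.0053 by edgeR). The genes not called against 3D cells were then higher than in 2D cells, HSP90AA1 by 0.67, HSP90AB1 by 0.27 and DNAJB1 by 0.30, and HSPB1 differed by 0.019 (adjusted p = 0.854 by edgeR).

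Other folding genes were described by lists. A gene named as leading a list is so among called genes with a mean of at least 10 CPM and groups that did not overlap. Over all genes tested 32.0% were higher and 31.7% lower, and a list near those shares does not stand apart from them. Of 12 other mitochondrial chaperones and cofactors tested, 11 rose and 0 fell in 3D cells (median log2 fold change 0.60), led by DNAJC15 (1.44, SE 0.09), a J-domain protein of the inner membrane, and GRPEL1 (1.35, SE 0.07), the nucleotide exchange factor of mitochondrial HSP70. Of 11 mitochondrial proteases, 9 rose, led by CLPP (0.80) and CLPX (0.73), the subunits of one protease, and OMA1 fell (-0.34). Of 9 subunits of TRiC, the cytosolic chaperonin that folds actin and tubulin, 7 rose and 0 fell, with CCT7 (0.45) and CCT8 (0.44) rising most. Of 19 HSP90 co-chaperones, 13 rose and 2 fell, or 1 when 2D replicate 2, 2D replicate 3, 3D replicate 1 or 3D replicate 2 was left out. The largest of these, FKBP5, a co-chaperone of hormone receptors, had at most 2 reads in any 2D library and 3335 to 3525 CPM in 3D cells, at least 50143-fold higher when set against a floor of 3 reads per library. FKBP4, its constitutive relative, rose by 0.71 (SE 0.06). Other lists were mixed, with 5 of 10 heat shock factors and regulators higher and 4 lower, 2 of 7 other HSP70 and HSP110 genes higher and 3 lower, 6 of 15 other J-domain proteins higher and 6 lower, and 3 of 8 prefoldin subunits higher and 2 lower. Of the heat shock factors and regulators, EP300 fell by 0.52 and VCP by 0.51. HSF1 rose by 0.38 (SE 0.07, adjusted p = 1.6e-04 by edgeR), and BAG3, a co-chaperone of HSP70 that is itself a heat shock gene, by 0.91 (SE 0.07).

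MUC1 silencing was compared by DOX against vehicle in tet-MUC1shRNA mammospheres. MUC1 itself fell from 83.1 to 101 CPM to 19.7 to 23.3 CPM (log2 fold change -2.06, SE 0.07). Of the 8 genes, 1 (HSPH1) rose and 6 fell, HSP90AB1 the most, beside 30.7% of all 19220 genes tested that were higher and 31.6% that were lower. The median over the 8 genes was -0.18, beside 0.02 over all genes, and the groups did not overlap for 7 of them, beside 62.4% of all genes tested. HSPH1 measured 231, 227 and 243 CPM with vehicle and 358, 365 and 324 CPM with DOX. The groups were well apart, with a rise of 0.60 (SE 0.05, adjusted p = 3.5e-10 by edgeR), or 1.52-fold. HSP90AB1, the constitutive HSP90, measured 1443, 1367 and 1273 CPM with vehicle and 834, 839.9 and 772 CPM with DOX. It fell by 0.72 on the log2 scale (SE 0.05, adjusted p = 3.2e-11 by edgeR), to 0.609 of the vehicle level.

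The inducible HSP90AA1 changed less, from 1254, 1230.0 and 1248 CPM to 1126, 1133 and 1055 CPM (log2 fold change -0.15, SE 0.04, adjusted p = 0.00238 by edgeR). The log2 ratio of HSP90AA1 to HSP90AB1 counts in a library was therefore -0.13 ± 0.09 with vehicle and 0.44 ± 0.01 with DOX (SD, n = 3). HSPD1 fell from 525, 537 and 518 CPM to 412, 425 and 380.3 CPM (-0.35, SE 0.04, adjusted p = 4.4e-07 by edgeR). HSPE1 stood at 37.9 to 41.8 CPM with vehicle and 34.1 to 39.8 CPM with DOX, and its difference of -0.07 (95% interval -0.20 to 0.06) was not called. HSPA8 fell from 2495 to 2534 CPM to 1921 to 2061 CPM (-0.30, SE 0.04), and HSPB1 from 377 to 434 CPM to 317 to 359 CPM (-0.21, SE 0.05). The HSPB1 call was lost with library size alone as the scale (-0.044, adjusted p = 0.428 by edgeR) and in a fit of all 21 libraries (-0.23, adjusted p = 0.107 by edgeR). DNAJB1, at 126 to 137 CPM and 113 to 119.6 CPM, fell by 0.12 (SE 0.05, adjusted p = 0.0283 by edgeR), and was not called without DOX replicate 3 (adjusted p = 0.104) or under a filter of 10 counts in each library (-0.071, adjusted p = 0.177). The share of reads from mitochondrial DNA was 2.60 to 2.78% with vehicle and 6.36 to 6.72% with DOX, and its part in the scaling was not tested. With library size alone as the scale, the median of all genes moved by 0.17, 64.4% of calls were higher instead of 49.3%, and the log2 fold changes of HSP90AA1, DNAJB1 and HSPE1 turned to 0.018, 0.045 and 0.093. Relative to that median they were -0.17, -0.14 and -0.10, which undoes the shift and is no separate test of their sign.

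The lists around these genes moved unevenly, beside 30.7% of all genes tested that were higher and 31.6% that were lower. A list near those shares does not stand apart from all genes. Of 19 HSP90 co-chaperones, 11 fell and 3 rose (1 rose without DOX replicate 2), among them PTGES3 (p23), which fell by 0.65 (SE 0.04). Of 9 nucleotide exchange factors and BAG proteins, 6 fell and BAG1 rose (0.41), and ST13, which holds HSP70 in its ADP-bound form, fell by 1.01 (SE 0.04, adjusted p = 8.2e-14 by edgeR) from a mean of 319 to 156 CPM. Of 9 TRiC subunits, 5 fell, CCT8 by 0.60, and 1 rose, a call lost without vehicle replicate 2, DOX replicate 1 or DOX replicate 2. Of 12 other mitochondrial chaperones, 5 fell, among them HSPA9 (mitochondrial HSP70, -0.44) and TRAP1 (mitochondrial HSP90, -0.41), and 3 rose, among them DNAJC11 (0.37) and CLPB (0.27), with a median over the list of -0.01. Of 11 mitochondrial proteases, 7 fell and 0 rose, with LONP1 at -0.64 and YME1L1 at -0.63. Of 8 mitochondrial stress regulators, 4 fell and 1 rose (median -0.26). In other lists the directions were mixed, with 3 of 8 prefoldin subunits higher and 2 lower, 5 of 16 other J-domain proteins higher and 7 lower, 2 of 8 other HSP70 and HSP110 genes higher and 3 lower, and 4 of 10 heat shock factors and regulators higher and 5 lower. The 3 prefoldin calls fell to 0 or 1 when any library but DOX replicate 3 was left out. HSF1 fell by 0.25 (SE 0.05, adjusted p = 1.4e-04 by edgeR), and BAG3 differed by -0.01 (adjusted p = 0.95).

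GO-203 treatment was compared with the same 3D libraries that served against 2D cells, so the 2 contrasts share those libraries. The share of reads from mitochondrial DNA was 3.34 to 4.40% with GO-203, above the 3D cells. The 10 immediate early genes summed to 676 to 723 CPM in 3D cells and 759 to 846 CPM with GO-203. The part of either was not tested. MUC1 RNA was 182 to 222 CPM in 3D cells and 244 to 264 CPM with GO-203, a rise of 0.33 (SE 0.07). Of the 8 chaperone genes, 7 fell and HSPB1 rose, beside 11.1% of all 18488 genes tested that were higher and 12.9% that were lower. The median over the 8 genes was -0.22, beside 0.02 over all genes, and the groups did not overlap for 7 of them, beside 33.1% of all genes tested. HSPH1 measured 494, 481 and 494 CPM without and 325, 309 and 325 CPM with GO-203. It fell by 0.59 (SE 0.05, adjusted p = 1.7e-08 by edgeR), to 0.667 of the 3D level. HSP90AA1 measured 1877, 1821 and 1954 CPM without and 1423, 1238 and 1369.7 CPM with GO-203. This fall of 0.46 (SE 0.05, adjusted p = 3.1e-07 by edgeR) was larger in size than that of HSP90AB1, from 1559.6 to 1672 CPM to 1280.1 to 1459 CPM (-0.21, SE 0.05, adjusted p = 0.00335). The log2 ratio of HSP90AA1 to HSP90AB1 went from 0.21 ± 0.02 to -0.04 ± 0.01 (SD, n = 3), the opposite direction to that with MUC1 silencing.

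HSPA8 fell from 2587 to 2855 CPM to 2157 to 2296 CPM (-0.26, SE 0.04, adjusted p = 1.3e-04 by edgeR) and DNAJB1 from 136 to 146 CPM to 113 to 124 CPM (-0.24, SE 0.06, adjusted p = 0.00573). Neither pair of groups overlapped. HSPD1 measured 643, 576 and 644 CPM with GO-203, below all 3 of the 3D libraries, and fell by 0.19 (SE 0.05, adjusted p = 0.0103 by edgeR). HSPE1, at 27.0 to 31.4 CPM with GO-203, overlapped the 3D cells, and its call (-0.19, adjusted p = 0.0918 by edgeR) was lost without 3D replicate 3 (-0.10), GO-203 replicate 1 or GO-203 replicate 2 and under several other settings. HSPB1 rose from 289, 271 and 284 CPM to 319.7, 333 and 308 CPM (0.22, SE 0.06, adjusted p = 0.00839 by edgeR). In a fit of all 21 libraries together, HSPB1 was not called in this contrast (0.19, adjusted p = 0.349).

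Of the lists, TRiC fell in 8 of 9 subunits with GO-203, by at most 0.37 (CCT7), and in 3 of 9 without 3D replicate 3. Over all genes tested with GO-203, 11.1% were higher and 12.9% lower. HSP90 co-chaperones fell in 11 of 19 genes and rose in 1, FKBP5 (0.30). AHSA1, which stimulates the ATPase of HSP90, fell by 0.31 (SE 0.06) and CACYBP by 0.25 (SE 0.06). Other mitochondrial chaperones fell in 3 of 12 genes, TRAP1 (-0.35) and GRPEL1 (-0.28) the most, and DNAJC15 rose (0.30). Among J-domain proteins of cytosol and nucleus, 3 of 16 rose, DNAJB4 (0.44) the most, and 2 fell, DNAJB6 (-0.41) and DNAJA1 (-0.19), or 1 without 3D replicate 3 or GO-203 replicate 2. None of 8 prefoldin subunits was called by edgeR. BAG3 fell by 0.23 (SE 0.07) and HSF1 by 0.18 (SE 0.06, adjusted p = 0.0572 by edgeR).

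With MYC silencing the mitochondrial chaperonin, both HSP90 genes, HSPA8 and HSPH1 fell, and HSPB1 rose. The share of reads from mitochondrial DNA was 3.37 to 4.08% with vehicle and 3.96 to 5.07% with DOX. The 10 immediate early genes summed to 457 to 486 CPM with vehicle and 545 to 772 CPM with DOX. The part of either was not tested. MYC RNA fell from 386 to 439 CPM with vehicle to 244 to 297 CPM with DOX in tet-MYCshRNA mammospheres (log2 fold change -0.62, SE 0.08), and MUC1 rose by 1.25 (SE 0.11). Of the 8 chaperone genes, 6 fell, HSPD1 the most, 1 (HSPB1) rose and DNAJB1 was not called, beside 30.3% of all 19951 genes tested that were higher and 28.1% that were lower. Their median was -0.69, beside 0.01 over all genes, and the groups did not overlap for 7 of them, beside 59.6% of all genes tested. HSPD1 measured 782, 801 and 811 CPM with vehicle and 310.2, 253 and 266 CPM with DOX. It was thus at 0.342 of the vehicle level, a fall of 1.55 on the log2 scale (SE 0.08, adjusted p = 1.6e-07 by edgeR). HSPE1 measured 21.9, 24.5 and 22.9 CPM with vehicle and 15.1, 9.09 and 11.4 CPM with DOX, lower in all 3 libraries (-0.98, SE 0.16, adjusted p = 4.7e-04 by edgeR). With a log2 fold change above 1.5 in size required as well, HSPD1 with MYC silencing remained called and the other genes and comparisons did not. Without DOX replicate 2 the change of HSPD1 was -1.49, which ends that call. That threshold was passed by 16.2% of all genes tested in 3D versus 2D cells, 8.82% with MUC1 silencing, 0.757% with GO-203 and 10.5% with MYC silencing.

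Both HSP90 genes fell. HSP90AB1 measured 1898, 1886 and 1827 CPM with vehicle and 991, 831 and 1009 CPM with DOX, at 0.498 of the vehicle level (-1.01, SE 0.08, adjusted p = 2.2e-06 by edgeR). HSP90AA1 measured 2852, 2926 and 2900.5 CPM with vehicle and 1879.7, 1501 and 1678 CPM with DOX (-0.80, SE 0.08, adjusted p = 1.6e-05 by edgeR). In the HSP70 system, HSC70 and the exchange factor fell while the J-domain protein was not called. HSPA8 fell from 3544, 3279 and 3225 CPM to 2174, 2284 and 2322 CPM (-0.59, SE 0.06, adjusted p = 1.9e-05 by edgeR), and HSPH1 from 712, 694 and 685 CPM to 491, 477 and 484 CPM (-0.55, SE 0.05, adjusted p = 1.4e-05). DNAJB1, at 159.9 to 174 CPM and 163 to 181 CPM, differed by 0.03 (95% interval -0.11 to 0.16). HSPB1 rose from 274, 258 and 220.2 CPM to 313, 528 and 488 CPM (0.80, SE 0.16, adjusted p = 0.00198 by edgeR). Its 3 DOX libraries spread widely, and replicate 1 stood nearest to vehicle for HSPB1, HSPD1 and HSPE1 as well as for HSP90AA1.

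**Figure D3:**
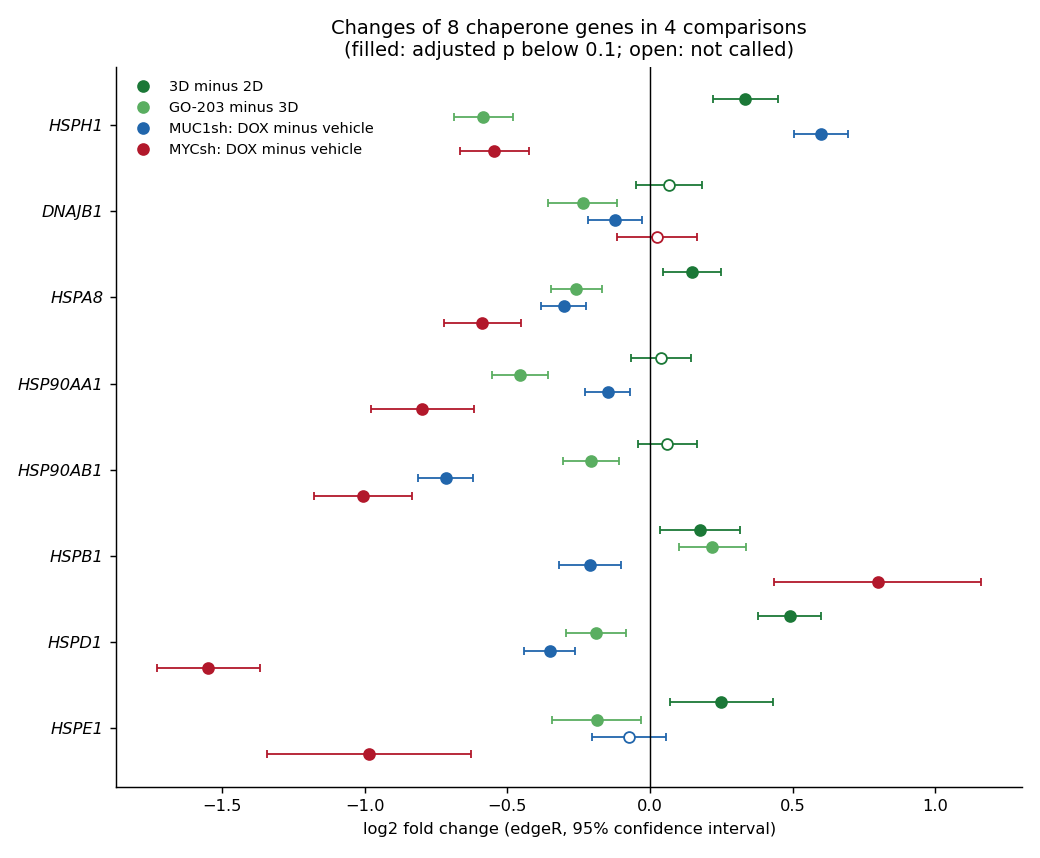
The x axis is the log2 fold change by edgeR with its 95% confidence interval for the 8 genes tested (y axis) in the 4 comparisons (colours). Filled points passed the adjusted p of 0.1 and open points did not. HSPD1 with MYC silencing lies farthest from 0 at -1.55, and HSPH1 is at 0.60 with MUC1 silencing and at -0.55 with MYC silencing.

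With MYC silencing the lists again differed in direction, beside 30.3% of all genes tested that were higher and 28.1% that were lower. Of 9 TRiC subunits, 8 fell, CCT8 by 1.06 (SE 0.07) and CCT5 by 1.05 (SE 0.06), and CCT6B, a gene at 0.519 to 1.81 CPM in this line whose name was chosen after its values were seen, rose (1.36, SE 0.25). Of 12 other mitochondrial chaperones, 9 fell (median -0.75), led by TRAP1, from a mean of 206 to 54.5 CPM (-1.94, SE 0.15), and BCS1L, an assembly factor of respiratory complex III (-1.42, SE 0.14). DNAJC15 rose (0.20), and 0 of the list were called higher without any one of the 3 vehicle libraries. Of 19 HSP90 co-chaperones, 14 fell, RUVBL1 (-1.45, SE 0.08) and FKBP4 (-1.19, SE 0.07) the most, and FKBP5 (1.45) and UNC45A (0.38) rose, with 1 of the list higher without vehicle replicate 3. HSPA4L, an HSP110 relative of HSPH1, fell by 1.43 (SE 0.09). Of 8 prefoldin subunits, 5 fell and 0 rose, PFDN4 (-0.87) and URI1 (-0.78) the most, and 8 of 11 mitochondrial proteases fell, PMPCA by 1.05, with OMA1 rising by 0.64. Of 8 other HSP70 and HSP110 genes 4 fell and 2 rose, and of 9 nucleotide exchange factors and BAG proteins 5 fell and 2 rose. Of 16 other J-domain proteins, 7 rose, DNAJB5 by 1.71 (SE 0.14), and 7 fell, and 4 of 10 heat shock factors and regulators rose and 2 fell. Of 8 mitochondrial stress regulators 4 rose and 2 fell, though the falls went to 0 without vehicle replicate 1, vehicle replicate 2 or DOX replicate 3 and to 1 without DOX replicate 1. BAG3 rose by 0.79 (SE 0.12, adjusted p = 3.4e-04 by edgeR). HSF1, at a mean of 111 and 121 CPM, was not called (0.10, SE 0.12, adjusted p = 0.518).

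**Figure D4:**
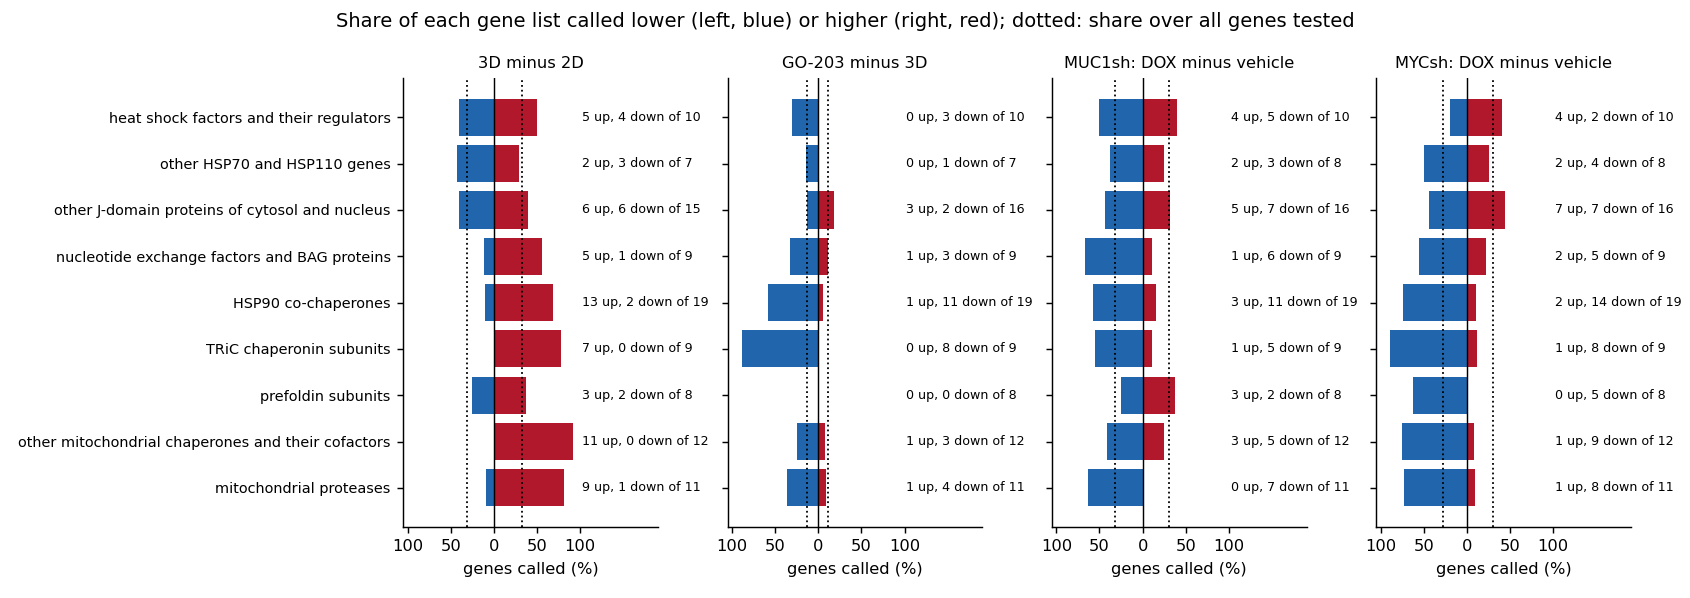
For each comparison the bars give the percent of the tested genes of a list that were called lower (left, blue) or higher (right, red), with the counts beside them. Dotted lines mark the percent over all genes tested, for example 12.9% lower with GO-203. TRiC subunits and HSP90 co-chaperones lie mostly to the right in 3D versus 2D cells and to the left in the other 3 comparisons.

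Whether the DOX effects of the 2 lines differed was tested by an interaction term over the 12 libraries, which takes the MYC silencing change minus the MUC1 silencing change. Of the 8 genes, 7 were called, beside 52.9% of all 21585 genes tested, so a call in this test was common. Over all genes 50.9% of these calls were higher, and 38.8% with library size alone as the scale. HSPD1 differed by -1.18 (SE 0.09, adjusted p = 6.7e-09 by edgeR) and HSPH1 by -1.13 (SE 0.07, adjusted p = 6.6e-10). HSPH1 thus rose in one line and fell in the other, from vehicle levels that were themselves apart, and after DOX it stood at 324 to 365 CPM in tet-MUC1shRNA and 477 to 491 CPM in tet-MYCshRNA mammospheres. HSPB1 also moved in opposite directions, with a difference of 1.02 (SE 0.19, adjusted p = 2.2e-04 by edgeR). Its fall with MUC1 silencing was not called with library size alone as the scale or in a fit of all 21 libraries. HSPE1 (-0.90), HSP90AA1 (-0.64), HSP90AB1 (-0.28) and HSPA8 (-0.27) differed by less, with the lower value under MYC silencing. DNAJB1 differed by 0.16 (adjusted p = 0.115 by edgeR), and was called without replicate 1 of the tet-MYCshRNA DOX group (adjusted p = 0.029) or of its vehicle group (adjusted p = 0.0784). Passage and the level of silencing differed between the lines, and the DOX time is stated for the tet-MUC1shRNA line alone. The part of these was not tested.

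**Figure D5:**
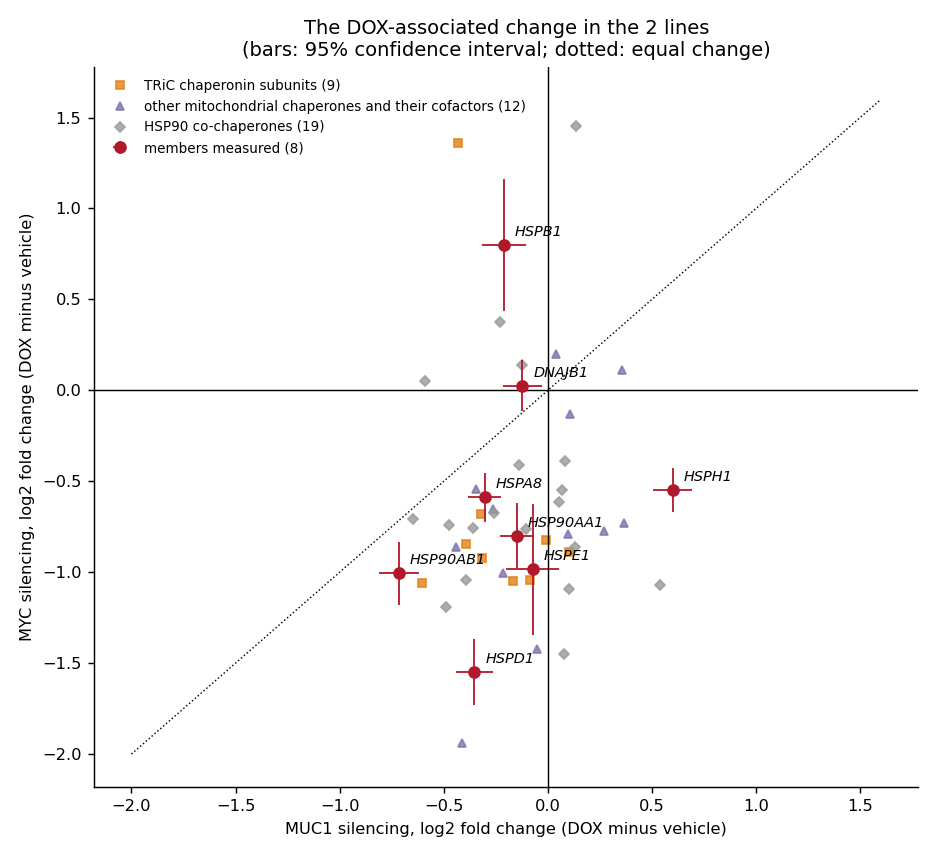
The x axis is the log2 fold change with MUC1 silencing and the y axis that with MYC silencing, and the dotted line marks equal change. Red points are the 8 chaperone genes with 95% confidence intervals, and the other symbols are TRiC subunits, other mitochondrial chaperones and HSP90 co-chaperones. HSPH1 lies to the right of 0 and below it, and HSPB1 to the left and above.

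Across the 21 libraries the chaperone genes did not vary as one set, which is given as a description because the libraries share groups and lines. Pearson correlations of log2 CPM ran from -0.74 (DNAJB1 with HSPE1) to 0.86 (HSPH1 with HSP90AA1). HSPD1 correlated at 0.54 with its lid HSPE1 and at 0.85 with HSP90AB1. HSPB1 was negatively correlated with HSPD1 (-0.68). Among 8840 genes with a mean of at least 10 CPM, the patterns most like that of HSPD1 belonged to ALDH1B1 (0.97), a mitochondrial aldehyde dehydrogenase, NOLC1 (0.97), a nucleolar phosphoprotein, GEMIN5 (0.96), a subunit of the SMN complex, TIMM21 (0.96), a subunit of the mitochondrial import machinery, and HDDC2 (0.96). For HSPH1, which was chosen after HSPA1B was found at the floor, they were SLC25A13 (0.96), the mitochondrial aspartate and glutamate carrier, NUDC (0.95), an HSP90 co-chaperone, SHMT1 (0.94), RAB8A (0.94) and BRD7 (0.93).

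The identity of the cells was checked with 10 genes. The mesenchymal gene VIM stood at 1075 to 2485 CPM. The receptor genes ESR1 and PGR stayed at or below 1.48 CPM. CDH1 and EPCAM stayed at or below 1.51 CPM in every library, and the keratins KRT8, KRT18 and KRT14 at or below 1.504 CPM. ERBB2 stood at 18.4 to 42.0 CPM. The basal keratin KRT5 moved with the groups, from 0 to 0.0684 CPM in 2D to 22.1 to 25.8 CPM in 3D cells and 90.4 to 97.8 CPM with GO-203. With DOX it went from 0.826 to 1.62 CPM to 14.5 to 16.4 CPM in the tet-MUC1shRNA line and from 3.85 to 6.61 CPM to 54.6 to 73.0 CPM in the tet-MYCshRNA line, and its relation to the chaperone levels was not tested. The summed levels of 5 leukocyte genes and 5 endothelial genes were at most 1.75 and 12.2 CPM.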

How the data were processed

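Poly(A) RNA of 21 libraries was made with a stranded mRNA kit and sequenced. The submitters' processing notes name CASAVA 1.8.2, STAR 2.7.3a and DESeq2, and the GRCh38 build. The study's methods name a later version of STAR and counting by featureCounts, and which STAR version made the deposited counts is not settled here. How strand and multiply matching reads were handled, and which annotation release was used, are not given in the sources used here. The authors deposited raw counts per Ensembl gene, not normalized. Between 4952 and 7587 cells per library were blank and were read as counts of 0. All columns belonged to a sample of the series (0 did not).

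Genes were named through a table that gave a symbol to 42252 of the 42339 identifiers. Each comparison was fitted on its own 6 libraries, and the interaction on 12, with edgeR 4.0.16 (R 4.3.3): filterByExpr, TMM scaling, quasi-likelihood test and Benjamini-Hochberg adjustment over all genes tested, with a call at an adjusted p below 0.1. Replicate number was not used as a block. For this, the deviation of each gene from its group mean was correlated between same-numbered libraries. In no comparison was that correlation above 0.1 for every pair (means -0.09 to 0.06). Alternatives were DESeq2 1.42.0, other scalings, filters and thresholds, the replicate block, a joint fit of all libraries, leaving out each library, other mammosphere controls, HSPA1A and HSPA1B summed and pseudogene counts added. The edgeR steps were tested on simulated data. A count of 3, taken as the floor, was 0.0301 to 0.0789 CPM, and covers counting error only. Pairs of libraries within a group differed by more than sampling noise (chi-square per degree of freedom 4.36 to 52.8), so each counted as 1 replicate.

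The members and lists were chosen with earlier results of these data known. From each list and comparison at most 2 rises and 2 falls were named, the largest among called genes with non-overlapping groups and a mean of at least 10 CPM, and a gene so named may appear in other comparisons. All heat shock factors and targeted genes could be named. Gene coordinates are from GENCODE 44 and sequences from RefSeq, both on GRCh38.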

Additional observations from a re-analysis of the deposited data

Results flagged for a closer look

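DOX effects differed between the tet-MUC1shRNA line and the tet-MYCshRNA line for 7 of the 8 chaperone genes by the interaction test of edgeR (12 libraries), which is what marked them for a closer look, and 52.9% of all genes tested also differed. Each value is the log2 fold change with MYC silencing minus that with MUC1 silencing. HSPD1 differed by -1.18 and HSPE1, its lid, by -0.90. HSPH1 differed by -1.13, with a rise in all 3 DOX libraries of one line and a fall in all 3 of the other. HSPB1 differed by 1.02 in the opposite sense. HSP90AA1 differed by -0.64, HSP90AB1 by -0.28 and HSPA8 by -0.27. The lines also differed in passage, in vehicle levels and in the fall of the targeted RNA, and the DOX time of the tet-MYCshRNA line is not stated. The part of these in the differences was not tested.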

How the results depend on the processing

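Leaving out each library in turn kept 4 to 5 genes higher and 0 to 0 lower in 3D versus 2D cells, 1 to 1 higher and 5 to 6 lower with MUC1 silencing, 1 to 1 and 6 to 7 with GO-203, 1 to 1 and 6 to 6 with MYC silencing, and 7 to 8 in the interaction. A log2 fold change above 1.5 in size left 0 genes higher in every comparison, 0 lower with MUC1 silencing or GO-203, 1 lower with MYC silencing and 0 in the interaction. Scaling by library size alone gave 3 higher in 3D versus 2D cells, with HSPA8 and HSPB1 lost, and 3 lower with MUC1 silencing. It reversed HSP90AA1 in 3D versus 2D cells (-0.021), HSP90AA1 (0.018), HSPE1 (0.093) and DNAJB1 (0.045) with MUC1 silencing, and DNAJB1 in the interaction (-0.045). This scaling moves all genes nearly alike. Subtracting the median of all genes undoes that shift and gave 0.046, -0.17, -0.10, -0.14 and 0.21, which is no separate test of the signs. In 1 fit of all 21 libraries 0 genes were higher with GO-203, and HSPB1 was not called in 3D versus 2D cells either (0.18, edgeR adjusted p = 0.204). With the vehicle group of the tet-MUC1shRNA line standing in for 3D cells, 2 genes were higher and 3 lower than in 2D cells. Of all 19018 genes tested in that contrast, 6865 were higher and 7197 lower. HSP90AA1 (-0.56), HSP90AB1 (-0.20), HSPH1 (-0.73) and DNAJB1 (-0.065) reversed. With the vehicle group of the tet-MYCshRNA line 6 genes were higher, both HSP90 genes and DNAJB1 among them, and 1 was lower, HSPE1 (-0.29). Of all 19948 genes tested in that contrast, 6745 were higher and 6463 lower. DNAJB1 with MYC silencing, which was not called, changed sign with no low count filter (-0.0085) and ran from -0.025 to 0.057 over the left-out libraries. The cause of these changes was not tested. The replicate block left the counts at 5 and 0, 1 and 6, 1 and 7, 1 and 6, and 7, and changed no call of these genes. Deviations from the group means in same-numbered libraries correlated at -0.01, 0.01, 0.06 and -0.09 on average in the 4 comparisons. With GO-203 those of all 3 libraries correlated best with their own number, a hint from the data and not the design. There the block raised the calls over all genes from 2059 higher and 2393 lower to 2331 higher and 2642 lower. The HSPE1 call with GO-203 (adjusted p = 0.0918) was also lost with DESeq2 (adjusted p = 0.101), and by edgeR with library size alone (0.115), pseudogene counts added (0.135), all libraries in the fit (0.241) or a threshold of 0.05. HSPE1 had the lowest depth of the genes tested, with 528 reads in its lowest library.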
